A study of Mus musculus with 18 samples.

Results

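The posterior Hoxa genes Hoxa9, Hoxa10, Hoxa11 and Hoxa13 were followed through oviduct, uterus and vagina, the 3 parts of the female reproductive tract with cells from the Müllerian duct of the embryo. They were taken as every probe set of the array annotated to 1 of these symbols, which gave 4 genes and 5 probe sets of the 12393 genes and 22626 probe sets on the array. Hoxa9 had 2 probe sets and the other genes 1 each. The groups were DES oviduct, oil oviduct, DES uterus, oil uterus, DES vagina and oil vagina of newborn ICR mice. In the DES groups the dams were injected with the synthetic estrogen diethylstilbestrol (DES) at 67 µg per kg of maternal body weight each day between fetal days 10 and 18, and in the oil groups oil over the same days. The labels state that RNA came from 3 litters at birth and do not say how litters map to arrays, so p-values measure the spread between arrays, which may be technical in part. Whole organs were used, in which fewer cells of a type and less RNA per cell cannot be told apart.

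Hox genes encode homeodomain transcription factors that give cells a position along the body axis, and their order on the chromosome follows the order of the body regions where they act. In the mouse tract, Hoxa9 is known for the oviduct, Hoxa10 for the uterus, Hoxa11 for the uterus and cervix, and Hoxa13 for the upper vagina. Loss of Hoxa10 or Hoxa11 in mice impairs the uterus and fertility, and Hoxa10 is known to be lowered by DES in the developing mouse tract.

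Each group had 3 arrays, except that DES vagina array 1 was made on an older chip, which left n = 2 DES vagina arrays. Arrays 1 and 2 of a group were scanned on a first day and array 3 on a second, so values within the first day rest on 1 DES vagina array, which that fit gives the spread of the other groups. Array 3 of each group carries a name with 19 days post coitum, so scan day and named age cannot be told apart. Between 52.7% and 66.3% of probe sets were called Present on the 16 arrays with calls. The deposited file of oil oviduct array 1 repeated that of DES oviduct array 1, so its signals came from the deposited value table and it has no calls. Skeletal muscle transcripts were high on oil oviduct arrays 1 and 3 and oil uterus array 3, where the summed signal of 8 muscle genes was 3552, 8823 and 9774, against 282 to 1105 on the other oviduct and uterus arrays. Without these 3 arrays, 1 oil oviduct array and 2 oil uterus arrays are left. Vagina arrays were kept, with sums of 3193 to 13588 with oil and 14117 to 19403 with DES. Leaving out the 3 arrays therefore does not take the muscle difference out of comparisons with the vagina. Differences from the fit without the 3 arrays are given beside the results. Some calls were lost in it, where fewer arrays and less muscle transcript cannot be told apart.

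Hoxa11 was the member called lower with DES, Hoxa10 followed the same order of organs, and Hoxa13 was high in the vagina alone. The stretches upstream of Hoxa10, Hoxa11 and Hoxa13 are shown for that reason. They are the 250 bases before the start, 5′ to 3′, from RefSeq on GRCm38.p6, minus strand of chromosome 6. The positions are chr6:52240855-52241104 for Hoxa10 (the upstream of its 2 starts), chr6:52245811-52246060 for Hoxa11 and chr6:52260881-52261130 for Hoxa13. Capitals mark matches to any of the 5 patterns named after the sequences.
Hoxa10: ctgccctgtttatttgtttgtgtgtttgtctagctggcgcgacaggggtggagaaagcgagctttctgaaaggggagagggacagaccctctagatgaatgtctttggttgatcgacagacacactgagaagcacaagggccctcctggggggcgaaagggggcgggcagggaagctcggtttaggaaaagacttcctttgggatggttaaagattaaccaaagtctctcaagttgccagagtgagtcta
Hoxa11: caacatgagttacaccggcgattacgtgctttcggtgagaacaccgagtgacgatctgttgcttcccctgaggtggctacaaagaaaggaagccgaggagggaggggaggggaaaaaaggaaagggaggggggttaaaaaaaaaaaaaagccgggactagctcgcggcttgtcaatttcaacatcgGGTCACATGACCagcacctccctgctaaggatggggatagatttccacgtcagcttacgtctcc
Hoxa13: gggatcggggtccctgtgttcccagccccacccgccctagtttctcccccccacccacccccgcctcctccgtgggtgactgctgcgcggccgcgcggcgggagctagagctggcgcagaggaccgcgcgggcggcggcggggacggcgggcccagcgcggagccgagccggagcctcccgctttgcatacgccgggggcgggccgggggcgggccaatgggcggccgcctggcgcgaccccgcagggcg
All 4 genes matched the table, with 5 promoters. Searched on both strands were the estrogen response element GGTCANNNTGACC (held by 0.064% of 32851 promoters of the same length), its core GGTCA alone (35.2%), the Cdx motif TTTATG (10.8%), the PBX-HOX motif TGATTNAT (2.83%) and GGTCANNTGACC (0.073%). The last pattern contains that core on each strand, and it was written down only after it had been read in the Hoxa11 promoter, so its match there is a description of that sequence and its rarity is no result. The core was matched at 2 places in the Hoxa11 promoter, both inside that pattern, and at 1 place in the Hoxa9 promoter, and the other 3 patterns were matched in none of the 5. The GC content was 80.0% upstream of Hoxa13, against 51.6% upstream of Hoxa10 and 52.0% upstream of Hoxa11, and the median over all promoters was 52.4%.

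Hoxa9 was high in the oviduct and uterus and lower in the vagina. Signals are scaled so that the trimmed mean of each array is 500. The brighter Hoxa9 probe set had signals of 1179, 1190.0 and 1137 in DES oviducts, against 1452, 1551 and 1955 in oil oviducts. It had 1119, 1498 and 1751 in DES uteri, against 1795, 1760.1 and 1967 in oil uteri. In the vagina it had 666 and 685 with DES, against 681, 701 and 542 with oil. Every oviduct and uterus array lay above every vagina array, and the oviduct and uterus groups overlapped within each treatment. In limma, Hoxa9 was higher in oil uterus than in oil vagina by 1.48 on the log2 scale (SE 0.16, adjusted p = 3.2e-05) and higher in oil oviduct than in oil vagina by 1.32 (SE 0.16, adjusted p = 7.8e-05). With DES, it was higher in uterus than in vagina by 1.05 (SE 0.18, adjusted p = 0.0040) and higher in oviduct than in vagina by 0.76 (SE 0.18, adjusted p = 0.0169). This last call was lost without DES oviduct array 1 (adjusted p = 0.0517), DES oviduct array 2 (0.0546), DES vagina array 2 (0.126) or DES vagina array 3 (0.112), and without the 2 oviduct arrays with conflicting records (0.0592). The call between DES uterus and DES vagina was lost without DES vagina array 2 (0.0636) or DES vagina array 3 (0.0518) and when only the groups compared were fitted (0.0608). Without the 3 arrays with skeletal muscle transcripts, the differences with oil were 1.43 for uterus minus vagina and 1.24 for oviduct minus vagina. The vagina arrays, which held such transcripts too, were kept. The dimmer Hoxa9 probe set differed in the same direction, by 0.85 between oil uterus and oil vagina (SE 0.24, adjusted p = 0.0605) and by 0.83 between oil oviduct and oil vagina (SE 0.24, adjusted p = 0.0680), and it passed the threshold with scan day as a block (0.0015 and 0.0018).

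Hoxa10 had its highest mean in the uterus. Its vagina and oviduct groups did not differ past the threshold, except with DES when scan day or replicate number was a block. It had signals of 410.0, 258 and 127 in DES oviducts, against 625, 528 and 287 in oil oviducts. It had 1141, 1524 and 858 in DES uteri, against 2265, 1664 and 1278 in oil uteri. In the vagina it had 564 and 439.8 with DES, against 819.8, 839 and 478 with oil. The uterus arrays lay above all oviduct and vagina arrays, while each DES group overlapped its oil group and the vagina and oviduct groups overlapped with oil. Hoxa10 was lower in oviduct than in uterus by a log2 difference of -2.11 with DES (SE 0.35, adjusted p = 0.0013) and -1.81 with oil (SE 0.35, adjusted p = 0.0114). The call with oil was lost without oil oviduct array 3 (adjusted p = 0.0588), oil uterus array 1 (0.0766) or oil uterus array 2 (0.0505). Leaving out the 3 arrays with skeletal muscle transcripts keeps 1 oil oviduct array. The difference was then -1.82, and the call was lost too. Between oil uterus and oil vagina the difference was 1.25 (SE 0.35, adjusted p = 0.0605), which passed with scan day as a block (adjusted p = 1.7e-04) and within the first scan day (0.0045). With DES it was 1.15 (SE 0.39, adjusted p = 0.268, and 0.0059 with the block). For oviduct minus vagina the log2 difference was -0.96 with DES (SE 0.39, adjusted p = 0.254, and 0.0015 with the block) and -0.56 with oil (SE 0.35, adjusted p = 0.594, and 0.0683 with the block).

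Hoxa10 was lower on the second scan day. In 6 of 6 groups array 3 was lower than the mean of the arrays of the first day, by a median log2 difference of -0.68 and a range of -1.17 to -0.34. The dimmer Hoxa9 probe set was also lower on array 3 in 6 of 6 groups, by a median of -0.48 and a range of -0.72 to -0.04, while the brighter one was lower in 2 of 6. Array 3 was lower in 3 of 6 groups for Hoxa11 and 3 of 6 for Hoxa13. The part of the named age in this was not tested.

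Hoxa11 had the largest difference between oviduct and uterus of the 4 genes in both treatments. It had signals of 163, 190.3 and 95.5 in DES oviducts, against 329.7, 331 and 263 in oil oviducts. It had 1024, 1294 and 1716 in DES uteri, against 1621, 1639 and 1787 in oil uteri. In the vagina it had 459 and 530.1 with DES, against 610.1, 520.2 and 374 with oil. The 3 organs did not overlap within either treatment, and the order was uterus, vagina, oviduct in both. Hoxa11 was lower in oviduct than in uterus by a log2 difference of -2.93 with DES (SE 0.23, adjusted p = 5.6e-07) and -2.34 with oil (SE 0.23, adjusted p = 2.1e-05). It was higher in uterus than in vagina by 1.36 with DES (SE 0.25, adjusted p = 0.0077) and 1.71 with oil (SE 0.23, adjusted p = 2.1e-04). The call with DES was lost without DES vagina array 2 (adjusted p = 0.132) or DES vagina array 3 (0.0567). Without the 3 arrays with skeletal muscle transcripts, the differences with oil were -2.20 for oviduct minus uterus and 1.67 for uterus minus vagina. The vagina arrays were kept there despite their muscle transcripts. Between oviduct and vagina, Hoxa11 was lower in the oviduct by a log2 difference of -1.57 with DES (SE 0.25, adjusted p = 8.4e-04), and the difference with oil was -0.63 (SE 0.23, adjusted p = 0.171; within the first scan day 0.0236).

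Hoxa13 was high in the vagina alone. It had signals of 91.4, 36.6 and 45.2 in DES oviducts, against 50.8, 49.3 and 59.2 in oil oviducts. It had 115 and 119 on DES uterus arrays 1 and 2 and 61.0 on array 3, against 132, 60.4 and 46.3 in oil uteri. In the vagina it had 414 and 451 with DES, against 239.9, 317 and 306 with oil. Every vagina array lay above every oviduct and uterus array. Hoxa13 was lower in uterus than in vagina by a log2 difference of -1.87 with DES (SE 0.34, adjusted p = 0.0064) and -1.58 with oil (SE 0.30, adjusted p = 0.0053). It was lower in oviduct than in vagina by a log2 difference of -2.42 with DES (SE 0.34, adjusted p = 2.4e-04) and -1.90 with oil (SE 0.30, adjusted p = 8.3e-04). Where a group was Present on none of its arrays with calls, only a bound is given, set against the lowest Present signal of each array or the gene's own signal, whichever is higher. Such a bound concerns detection alone, and the spread between arrays allows smaller differences. Hoxa13, Present on 0 of 2 oil oviduct arrays with calls, was at least 3.74-fold higher in oil vagina than in oil oviduct by this bound. The log2 difference of -1.90 between these groups had a 95% interval of -2.55 to -1.26. Without the 3 arrays with skeletal muscle transcripts, the differences with oil were -1.37 for uterus minus vagina and -1.97 for oviduct minus vagina. Muscle transcripts on the vagina arrays remained in that fit. The call between DES uterus and DES vagina was lost without DES vagina array 2 (difference -1.92) or DES vagina array 3 (-1.81), which leaves 1 DES vagina array. Within the first scan day, which also holds 1 DES vagina array, both uterus calls were lost. The differences there were -1.58 with DES and -1.32 with oil. Hoxa13 is also known in the hindgut, and oil vagina array 1 held hindgut transcripts, with a summed signal of 3452 over 5 hindgut genes, against 243 and 190.3 on the other oil vagina arrays and 259 and 295 on the DES vagina arrays. Lgals4, with 2994 there, Cdh17, with 256, and Vil1, with 158, were Present on that array, and Cdx1 and Cdx2, which define the hindgut, were Present on none of the 16 arrays with calls. Hoxa13 was lowest on that array among the 5 vagina arrays, and the part of hindgut tissue in its level was not tested.

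**Figure D1:**
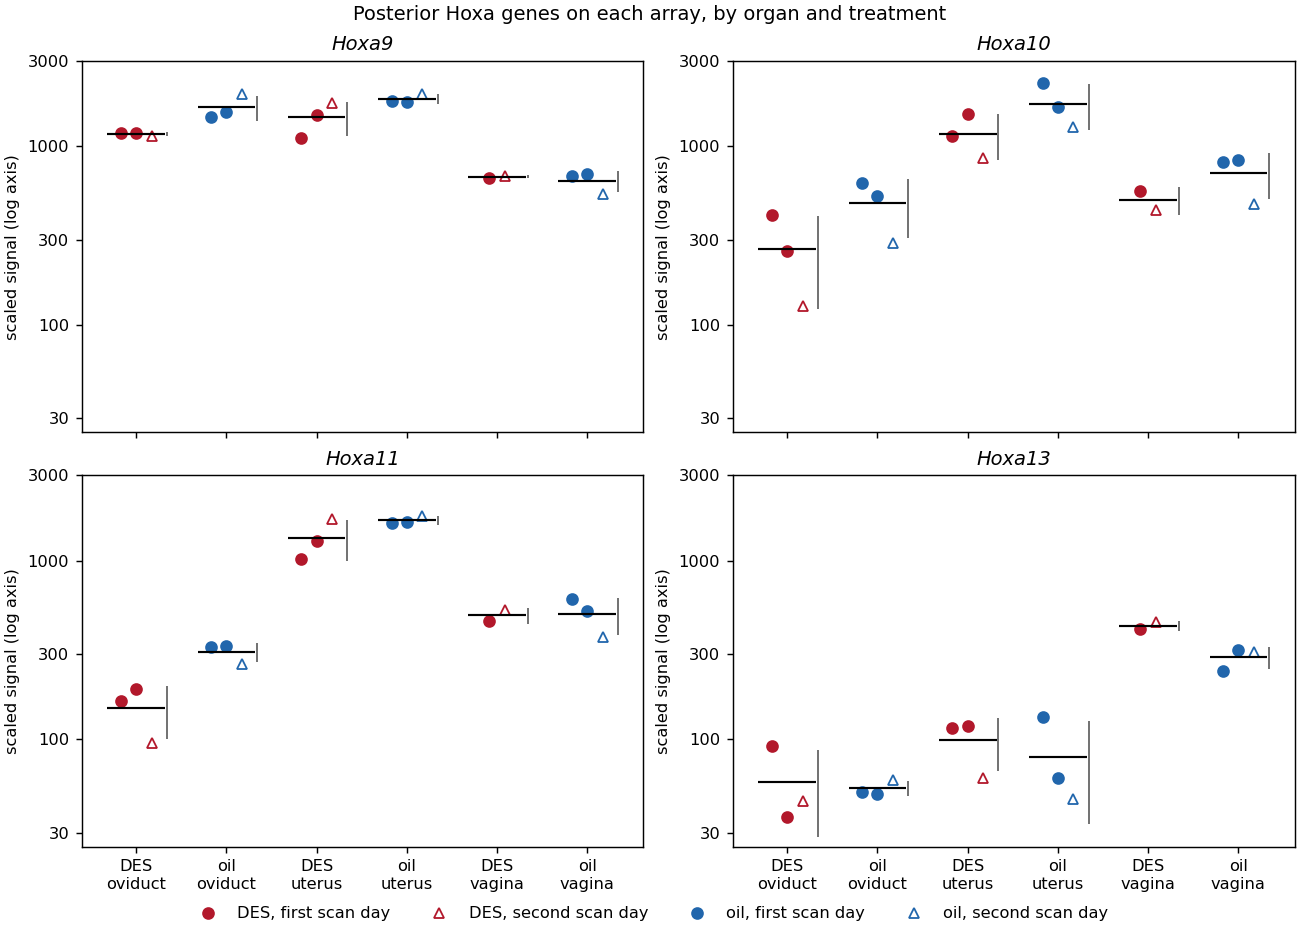
Scaled signal (log axis) of each posterior Hoxa gene on every array, with DES groups left of oil groups in each organ. Circles are arrays of the first scan day, open triangles those of the second, black lines group means and grey bars 1 SD on either side (n = 3, and n = 2 for DES vagina). Hoxa10 and Hoxa11 peak in the uterus, Hoxa13 is high in the vagina, and the Hoxa10 triangle is below both circles in each group of 3.

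Counted over the 4 genes, the organ differences were called as follows. Between oviduct and uterus, 2 of 4 genes were called with DES and 2 of 4 with oil (Hoxa10 and Hoxa11, lower in the oviduct in both), where 4.21% and 1.47% of all probe sets tested were called. Between uterus and vagina, 3 of 4 were called with DES and 3 of 4 with oil (Hoxa9 and Hoxa11 higher in the uterus, Hoxa13 lower), where 1.64% and 3.75% of probe sets were called. Between oviduct and vagina, 3 of 4 were called with DES (Hoxa9 higher in the oviduct, Hoxa11 and Hoxa13 lower) and 2 of 4 with oil (Hoxa9 higher, Hoxa13 lower), where 5.12% and 3.95% were called. Each call between DES uterus and DES vagina was lost without DES vagina array 2 or DES vagina array 3, which leaves 1 DES vagina array. Without oil oviduct array 3, oil uterus array 1 or oil uterus array 2, 1 gene, Hoxa11, was called between oil oviduct and oil uterus. The share of all probe sets called in those fits was not counted. With scan day as a block, 4 of 4 genes were called between uterus and vagina with DES and with oil, where 3.2% and 8.16% of probe sets were called. In that fit 4 of 4 were also called between oviduct and vagina with DES, beside 8.89% of probe sets.

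**Figure D2:**
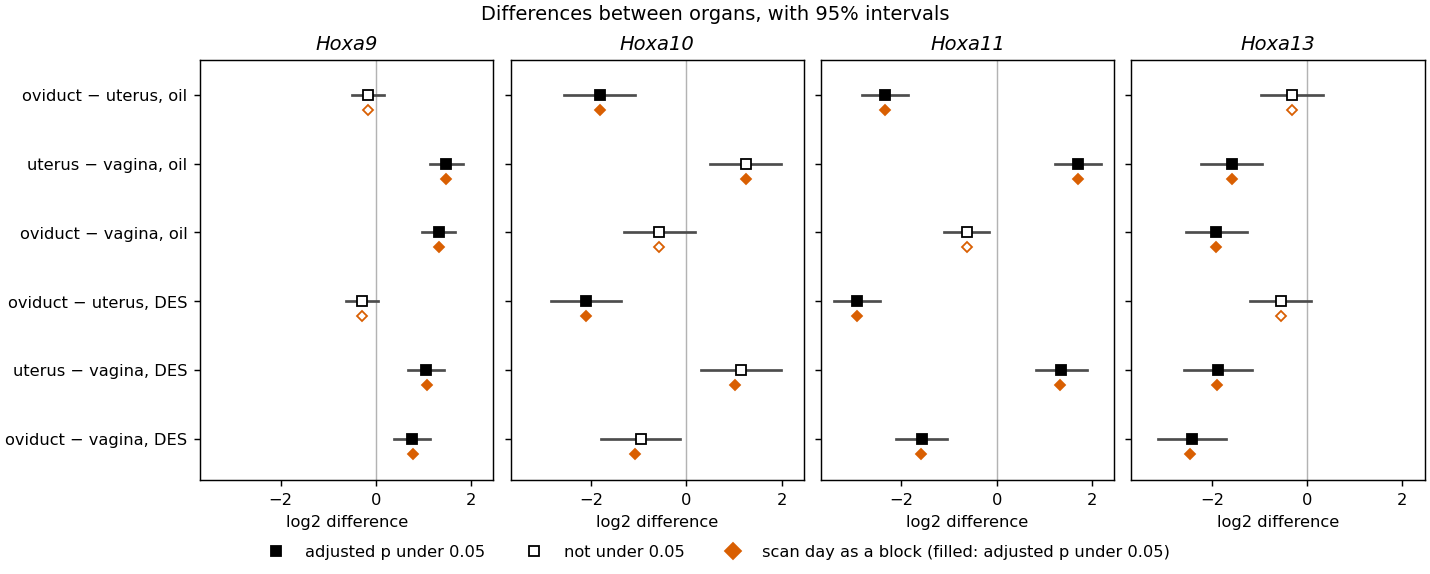
Log2 differences between organs for each gene, the first-named organ minus the second, with 95% intervals (lines). Filled squares have an adjusted p under 0.05, and diamonds show the same difference with scan day as a block. Hoxa10 and Hoxa11 are below 0 for oviduct minus uterus, and Hoxa13 is below 0 wherever the vagina is subtracted.

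With DES, Hoxa11 fell in the oviduct. It was the only 1 of the 4 genes called there, where 7.78% of probe sets were called, and its log2 difference between DES and oil was -0.94 (SE 0.23, 95% interval -1.42 to -0.46, adjusted p = 0.0155). All 3 DES oviduct arrays lay below all 3 oil oviduct arrays, and Hoxa11 was called Present on 1 of 3 DES oviduct arrays and on 2 of 2 oil oviduct arrays with calls. The difference was -0.80 within the first scan day (adjusted p = 0.0078) and -1.21 between the single arrays of the second. The call was lost without DES oviduct array 3 (difference -0.70, adjusted p = 0.0778), oil oviduct array 1 (-0.89, 0.0610) or oil oviduct array 2 (-0.89, 0.0589), and when the groups compared were fitted alone (0.0768). It was also lost without the 2 oviduct arrays with conflicting records (-0.96, adjusted p = 0.101). Without the 3 arrays with skeletal muscle transcripts, where 1 oil oviduct array is left, the difference was -1.04 and the call was lost.

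Hoxa10 and Hoxa9 in the oviduct did not pass the threshold without a term for scan day. The log2 difference between DES and oil was -0.84 for Hoxa10 (SE 0.35, adjusted p = 0.189) and -0.48 for Hoxa9 (SE 0.16, adjusted p = 0.0884). With scan day as a block both were called lower (adjusted p = 0.0036 for Hoxa10 and 0.0300 for Hoxa9), so that 3 of 4 genes were called, where 15.3% of probe sets were called in that fit. Within the first scan day 2 of 4 genes were called, beside 10.5% of probe sets, and Hoxa10 was called with Hoxa11 (-0.76 for Hoxa10, adjusted p = 0.0361) while Hoxa9 was not (-0.33, adjusted p = 0.177). The dimmer Hoxa9 probe set had -0.43 (adjusted p = 0.361, and 0.0732 with the block). Without the 3 arrays with skeletal muscle transcripts, where 1 oil oviduct array is left, the differences were -1.04 for Hoxa10 and -0.40 for Hoxa9.

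In the uterus 0 of 4 genes were called by limma between DES and oil, where 8.45% of probe sets were called, and 1 gene, Hoxa9, had an unadjusted p under 0.05. Hoxa10 had a log2 difference of -0.55 (SE 0.35, adjusted p = 0.433), which was called with scan day as a block (adjusted p = 0.0481), the 1 of 4 genes called in that fit beside 16% of probe sets. It was -0.55 within the first scan day, -0.56 between the arrays of the second, and -0.75 without the 3 arrays with skeletal muscle transcripts. Hoxa9 had -0.35 (SE 0.16, adjusted p = 0.232), Hoxa11 -0.35 (SE 0.23, adjusted p = 0.449) and Hoxa13 0.27 (SE 0.30, adjusted p = 0.726).

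In the vagina 0 of 4 genes were called by limma, where 2.15% of probe sets were called, and 0 had an unadjusted p under 0.05. Both DES vagina arrays had more Hoxa13 than all 3 oil vagina arrays, with a log2 difference of 0.55 (SE 0.34, 95% interval -0.17 to 1.27, adjusted p = 0.616). It was 0.53 within the first scan day and 0.51 between the arrays of the second. Hoxa10 had -0.45 (SE 0.39, adjusted p = 0.781), Hoxa9 0.08 (SE 0.18, adjusted p = 0.945) and Hoxa11 0.00 (SE 0.25, 95% interval -0.53 to 0.54, adjusted p = 0.998).

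**Figure D3:**
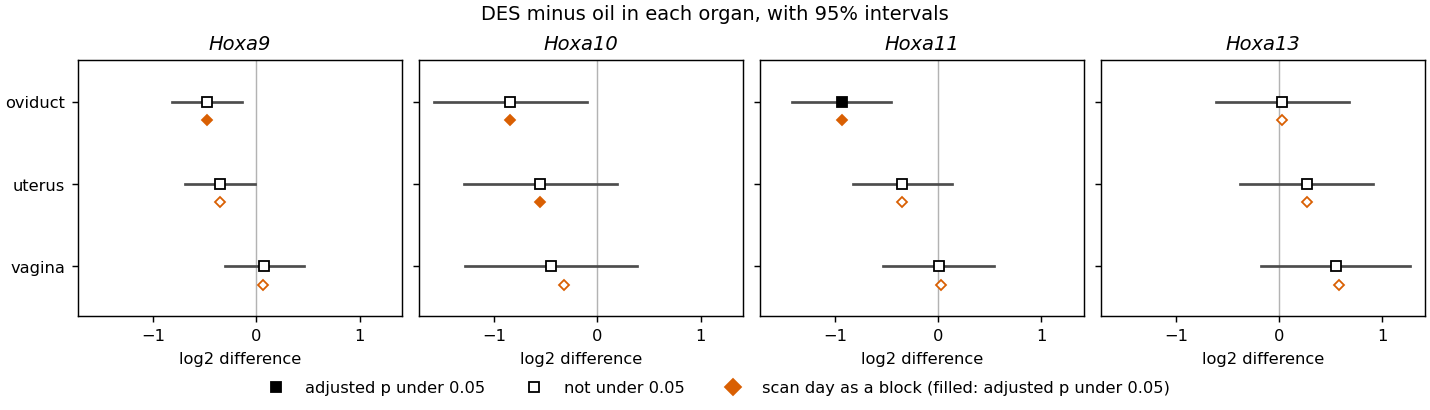
Log2 difference between DES and oil in each organ for each gene, with 95% intervals (lines). Filled squares have an adjusted p under 0.05, and diamonds show the fit with scan day as a block. Hoxa11 in the oviduct is the filled square, and the interval of Hoxa13 in the vagina spans 0.

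Whether the DES difference itself varied between organs was tested for each gene. None of the 4 genes was called by limma for uterus minus oviduct, vagina minus uterus or vagina minus oviduct, where 1.3%, 0.222% and 1.36% of probe sets were called. The unadjusted p was under 0.05 for 0, 0 and 2 genes, the 2 being Hoxa9 and Hoxa11. For Hoxa11 the DES difference was higher in vagina than in oviduct by 0.94 (SE 0.34, 95% interval 0.22 to 1.66, adjusted p = 0.318).

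Several marker lists moved in the same organs. The summed signal of 6 simple epithelium genes was 20570 to 24905 in DES oviducts, against 10285 to 14360 in oil oviducts, and 20735 to 28222 in DES uteri, against 11879 to 14430 in oil uteri, with 4 of 6 genes called higher in each organ. The sum of the 3 mesothelium genes on the array was 1443 to 1990.4 in DES oviducts, against 5050.4 to 5919 in oil oviducts, and 3 of 3 were called lower. In the uterus that sum was 1027 to 1536 with DES, against 2848 to 3425 with oil, and 2 of 3 were called lower. The neural and Schwann cell list summed to 541 to 647 in DES oviducts, against 2712 to 5302 in oil oviducts, with 3 of 3 genes tested called lower, and the ovary and germ cell list to 216 to 426, against 1217 to 3339, with 3 of 5 called lower. The smooth muscle list summed to 10902 to 13793 in DES uteri, against 5328 to 6947 in oil uteri, with 3 of 5 called higher. Between organs, the skeletal muscle list summed to 14117 to 19403 in DES vaginas and 3193 to 13588 in oil vaginas, and 6 of 8 of its genes were called lower in DES uterus and in DES oviduct than in DES vagina, and 2 of 8 with oil. Other lists differed between organs too. Of 5 smooth muscle genes, 4 were called lower in DES oviduct than in DES uterus, but 0 with oil. In oil uterus 3 of them were called lower than in oil vagina. In oil oviduct against oil vagina, 3 of 3 mesothelium genes were called higher and 4 of 6 simple epithelium genes lower. The shares of all probe sets called between organs stand with the counts over the 4 genes. For 7 mesenchyme genes the sum was 85115 to 97649 in DES oviducts, against 76821 to 91579 in oil oviducts. There 0 of 7 were called either way (1 higher and 1 lower with the scan day block). In the uterus the mesenchyme sum was 99168 to 107048 with DES, against 67599 to 77248 with oil, with 2 of 7 called higher and 1 lower. In the vagina it was 101620 to 109447 with DES, against 72284 to 91564 with oil, and 0 of 7 were called (2 higher with the block). The part of these cell types in the Hoxa differences was not tested. As a check of the organ labels, stratified epithelium genes summed to 14619 to 23512 in DES vaginas and 2195 to 8266 in oil vaginas, and to at most 1169 on any oviduct or uterus array. The oviduct list summed to 5580 to 7568 in DES oviducts and 1732 to 2159 in oil oviducts, and to at most 902 elsewhere. The uterus list (Wnt7a, Msx2 and Wnt4) was highest in oil uteri, with 2652 to 2733, but summed to 944 to 1202 in DES uteri, below the 1363 to 1556 of DES vaginas, the 1805 to 1968 of oil vaginas and the 1339 to 1554 of oil oviducts.

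Hoxa11os is the antisense transcript of Hoxa11 and is not a member. It had 77.1, 58.0 and 31.8 in DES oviducts, against 85.7, 88.6 and 51.3 in oil oviducts, and was Absent on all 3 DES oviduct arrays. It had 299, 307 and 358 in DES uteri, against 515, 529.8 and 938 in oil uteri, and the 2 groups did not overlap. It was lower in DES uterus by a log2 difference of -0.92 (SE 0.27, adjusted p = 0.0411; -0.73 and 0.0595 within the first scan day), while Hoxa11 itself was not called there, and the difference between the pair was not tested. In the vagina it had 282 and 391 with DES, against 510.0, 388 and 335 with oil. Hoxa11os was at least 4.12-fold higher in DES uterus and at least 4.26-fold higher in DES vagina than in DES oviduct, as bounds of detection. The 95% intervals of the log2 differences were -2.61 to -1.47 for DES oviduct minus DES uterus and -2.72 to -1.46 for DES oviduct minus DES vagina.

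Nearer the other end of the cluster, Hoxa5 was highest in the oviduct. Of 7 other Hoxa genes, 5 were on the array and 4 were tested. Hoxa5, known for its role in the lung and axial skeleton, averaged 1050.1 ± 156 in DES oviducts and 1211 ± 155 in oil oviducts (SD, n = 3 each), 339.9 ± 147 in DES uteri and 623 ± 52.9 in oil uteri (n = 3 each), and 140.2 ± 42.3 (n = 2) in DES vaginas and 158 ± 23.4 (n = 3) in oil vaginas. It was at least 6.54-fold higher in oil oviduct than in oil vagina (adjusted p = 1.7e-06), where it was Present on no array, and in the uterus it was lower with DES, by a log2 difference of -0.89 (SE 0.23, adjusted p = 0.0246). Hoxa3, by its brightest probe set, was at least 2.95-fold higher in DES oviduct than in DES vagina (adjusted p = 0.0281), where it too was Present on none. Another Hoxa3 probe set, also Present on no DES vagina array, was at least 1.72-fold higher in DES oviduct. Between DES and oil, 0 of the 4 were called in the oviduct, 1 of 4 (Hoxa5) in the uterus and 0 in the vagina, beside 7.78%, 8.45% and 2.15% of all probe sets.

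**Figure D4:**
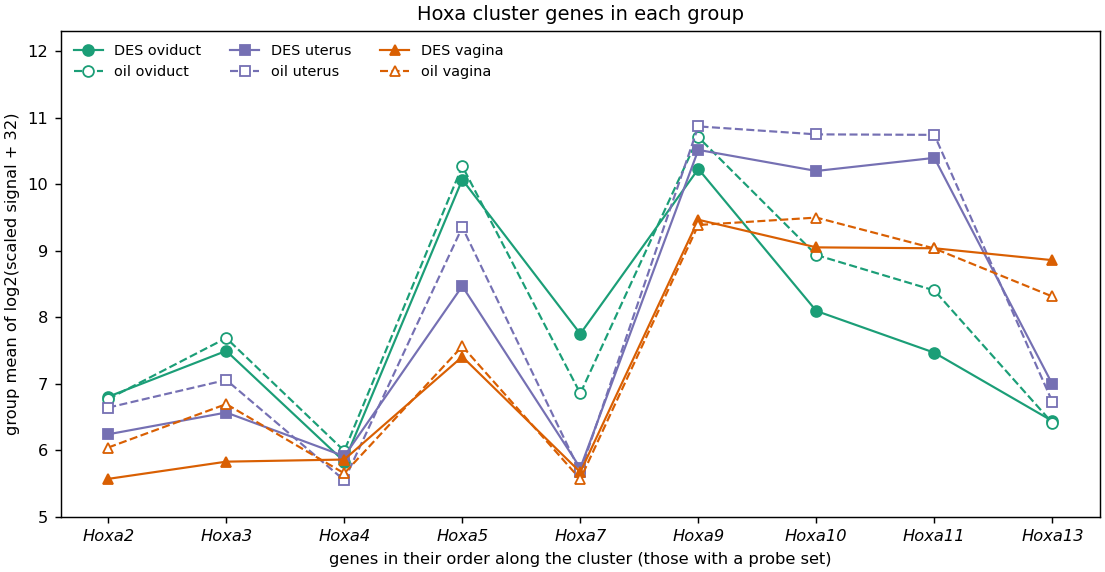
Group means of log2(scaled signal + 32) for the 9 Hoxa genes with a probe set, in their order along the cluster. Solid lines and filled markers are DES groups, dashed lines and open markers oil groups. Levels of different probe sets are not comparable with each other; within a gene, Hoxa5 is highest in the oviduct, Hoxa10 and Hoxa11 in the uterus and Hoxa13 in the vagina.

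Posterior genes of the other Hox clusters, which encode related homeodomain proteins, were tested for 4 of 12 genes, all in the Hoxd cluster. Between DES and oil in the oviduct, 2 of 4 were called lower, Hoxd10 by a log2 difference of -2.36 (SE 0.28, adjusted p = 3.7e-05) and Hoxd9 by -1.62 (SE 0.26, adjusted p = 6.3e-04), and the median of the 4 was -1.16, against -0.05 over all probe sets tested. Hoxd10 averaged 77.0 ± 52.5 in DES oviducts and 478 ± 69.9 in oil oviducts (SD, n = 3 each). In the uterus 1 of 4 was called lower, Hoxd9 by -1.24 (SE 0.26, adjusted p = 0.0052), and in the vagina 0 of 4 were called. Hoxd13, like Hoxa13, was high in the vagina, with 377 ± 144 in DES vaginas (n = 2) and 379 ± 15.9 in oil vaginas (n = 3), and at most 18.5 on any oviduct or uterus array.

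Of 9 Hox cofactors of the TALE homeobox family, 7 were tested. Meis2, which binds DNA together with Hox proteins, fell with DES in all 3 organs, by a log2 difference of -0.78 in the oviduct (SE 0.15, adjusted p = 0.0032), -0.56 in the uterus (SE 0.15, adjusted p = 0.0311) and -0.80 in the vagina (SE 0.17, adjusted p = 0.0175). Pknox1 fell in the uterus by -0.75 (SE 0.17, adjusted p = 0.0086), and no other cofactor was called between DES and oil in that fit. Of 18 genes tied to Hoxa function or control in the tract, 14 were tested. Between DES and oil, 3 rose and 3 fell in the oviduct, 2 rose and 6 fell in the uterus, and 2 rose and 3 fell in the vagina. Of all probe sets, 7.78%, 8.45% and 2.15% were called in these organs. Wnt7a, a signal of the Müllerian epithelium known to maintain Hoxa10 and Hoxa11 in the mouse uterus, was Present on no DES array and fell with DES, at least 6.18-fold in the oviduct (adjusted p = 1.2e-04), 6.05-fold in the uterus (1.3e-04) and 4.72-fold in the vagina (0.0020). Greb1, a target of the estrogen receptor, was Present on no oil array with calls and rose with DES, at least 5.74-fold in the oviduct (adjusted p = 6.5e-06), 4.03-fold in the uterus (5.7e-05) and 2.53-fold in the vagina (0.0164).

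The genes whose pattern was most like each member were ranked by Pearson r of log2 signals over 17 arrays among 9525 genes, as a description of arrays that share organs, treatments and scan days. For Hoxa10 they were S1pr3, a sphingosine-1-phosphate receptor (r = 0.95), Hoxd11 (0.94) and Klk8, a serine protease (0.92), and Hoxa11 ranked 4 with 0.91, or 0.97 with scan day means removed. For Hoxa11 they were S1pr3 (0.95), Hoxd11 (0.95) and Hoxd10 (0.92). For Hoxa9 they were Hoxd8 (0.91), C1ra, a complement protease (0.91), and Igf2, a fetal growth factor (0.89). For Hoxa13 they were Cldn4, a tight junction protein (0.93), Gata3, a transcription factor (0.92), and Psca, a membrane-anchored protein (0.92). Hoxa9 and Hoxa13 ran opposite to each other, with r = -0.83.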

How the data were processed

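RNA from 18 samples was hybridized to Affymetrix arrays, 17 of them MOE430A. Per the file headers, the deposited files hold a signal intensity, a detection call and a detection p-value for each probe set. The chip type and scan day, other than these measurements, come from the deposited experiment records per the file headers. What software and scaling the authors used is not stated there or in the labels. Each array was scaled to a mean of 500 after trimming 2% at each end, and log2(signal + 32) was the value tested by limma 3.58.1 (R 4.3.3) for the 16702 probe sets Present on at least 2 arrays, with 1 mean per group, a variance trend and Benjamini-Hochberg adjustment within each of 12 contrasts (threshold 0.05). Fold changes on this scale understate those of low signals, and the number of arrays limits the precision. Of 22626 probe sets, 20380 had 1 symbol, 691 several and 1555 none. Hoxa9 was represented by its probe set with the highest mean.

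The 4 genes, the gene lists, the naming rule (all members, up to 4 called genes of a list in a contrast, and the 3 genes most like a member) and the motifs were chosen with earlier results of these data known. The motifs were chosen with the promoter table open, and 1 of the 5 after it was seen in the Hoxa11 promoter.

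Deviations from group means correlated with a median r of 0.284 between arrays of the same number (n = 40 pairs, lowest 0.0968), 0.233 between numbers 1 and 2 (n = 25) and -0.351 across scan days (n = 55). The numbers were not taken as pairs. The main fit held no term for scan day, which was a block only in an alternative fit. Data were simulated with a normal spread independent between arrays and no scan day effect. A log2 change of 1 was recovered for 51% (oviduct), 46% (uterus) and 34% (vagina) of changed probe sets, and a change of 2 for 87%, 93% and 88%. The real deviations were correlated, so these shares do not give the power of the real arrays. Alternatives were quantile normalization, pseudocounts of 1 and 100, other filters and sources, blocks for replicate number and scan day, the first scan day alone, fewer arrays, and each array left out.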

Additional observations from a re-analysis of the deposited data

Results flagged for a closer look

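DES vagina array 1, made on the older chip and used in no comparison, gave a Present call for 3 of the 4 genes, with scaled signals of 307 for Hoxa10, 662 for Hoxa11 and 402 for Hoxa13. Hoxa9 was Marginal there, at 283, and 5 of 16 Hoxa probe sets were Present, against 49.1% of all 12422 probe sets. All probe sets of Hoxa2 to Hoxa7 were Absent on it. Signals of the 2 chips are not on a common scale.

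For 2 genes outside the 4, the DES difference itself was tested and varied between organs. For Hoxd10 it was higher in the vagina than in the oviduct by 2.64 on the log2 scale (SE 0.42, limma adjusted p = 0.0035), with 482.7 ± 22.6 in DES vaginas (n = 2) and 397.9 ± 80.8 in oil vaginas (n = 3). For Wnt4, a signal needed for the Müllerian duct to form, it was higher in the vagina by 2.19 than in the uterus (SE 0.28, limma adjusted p = 0.0019) and by 2.09 than in the oviduct (SE 0.28, adjusted p = 7.5e-04). Wnt4 averaged 1026 ± 104 in DES vaginas (n = 2) and 434 ± 118 in oil vaginas (n = 3), but 617 ± 99.9 in DES uteri and 1235 ± 121 in oil uteri (n = 3 each).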

How the results depend on the processing

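Over 30 alternatives, the sign of all 16 called member differences was kept, and 9 of the 16 stayed called in every one. No value of the 60 gene results turned its sign past the threshold. The replicate block and the scan day block each gave 3 members called between DES and oil in the oviduct and 1 in the uterus, against 1 and 0 without a block. Of all probe sets, the scan day block called 15.3% in the oviduct and 16% in the uterus, against 7.78% and 8.45% without a block. The first scan day alone called 10.5% in the oviduct. The share of all probe sets called in the other alternative fits named here was not counted. Since the array numbers were not taken as pairs, the replicate block stands here only as a check, and arrays numbered 3 are also those of the second scan day. In the oviduct 2 were called within the first scan day, and 0 with only the groups compared, without the 2 oviduct arrays with conflicting records, and without the arrays with skeletal muscle transcripts, an alternative chosen after seeing the data. Leaving out 1 array gave 0 to 1 there, 1 to 2 between oil oviduct and oil uterus, and 0 to 3 between DES uterus and DES vagina, where the fit gives the remaining DES vagina array the spread seen in the remaining groups. Without the arrays with skeletal muscle transcripts, 1 member was called between oil oviduct and oil uterus. Causes other than fewer arrays were not tested. Low signal limits Hoxa13 in oviduct and oil uterus and Hoxa11 in DES oviduct, where most calls were not Present.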
